A study of Homo sapiens with 34 samples.

Results

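ZIC2, ZIC5, SP8, SOX3, SOX21, SOX1, NKX1-2 and PAX6 are transcription factor genes of the neural plate, of the caudal epiblast that feeds both spinal cord and paraxial mesoderm, or of both. The 8 genes were chosen by symbol, and each symbol matched 1 of the 37951 genes listed in the deposited count tables. Their levels were read in 34 RNA sequencing libraries of ESI017, a wild-type human embryonic stem cell line, covering 17 conditions with 2 replicates each. On day 1 the cells received 1 of 4 primitive streak (PS) treatments for 24 h. DE(a), the day 1 treatment of the endoderm protocol, used 100 ng/ml activin and 2 µM CHIR99021, an activator of canonical Wnt signaling. Anterior PS (APS) induction combined activin at 30 ng/ml with bFGF at 20 ng/ml and CHIR99021 at 4 µM. Mid PS (MPS) induction kept those activin and bFGF doses, added BMP4 at 40 ng/ml and raised CHIR99021 to 6 µM. Posterior PS (PPS) cells received the MPS mixture without activin, which made MPS and PPS the pair of day 1 treatments that differed by a single factor. On day 2 each PS population was moved to 1 of 3 media until 48 h. The endoderm medium DE(b) held 100 ng/ml activin and 250 nM LDN193189, a BMP receptor inhibitor. The paraxial mesoderm medium PM held 1 µM A8301, which inhibits activin receptors, with 20 ng/ml bFGF and 250 nM LDN193189. The lateral mesoderm medium LM held 1 µM A8301, 30 ng/ml BMP4 and 4 µM IWP2, an inhibitor of Wnt secretion. The control was untreated ESI017 kept in mTeSR PLUS, the maintenance medium of the line, and labelled as collected at 48 h. The labels and methods list no CHIR99021 for PM. The study nevertheless describes PM induction from APS as Wnt activation together with BMP inhibition. The legend of its Wnt dose experiment also names CHIR99021 in the standard PM medium. The labels do not settle whether the sequenced PM cultures held it. Conditions at 48 h are named by day 1 and then day 2 treatment, as in PPS-LM.

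ZIC proteins are zinc finger factors, and ZIC2 is best known for its part in forebrain midline development and in the early neural plate. SP8, a zinc finger factor of the Sp family, acts in the limb ridge, the forebrain and the tail bud, where its relative SP5 is a direct Wnt target. NKX1-2 is a homeobox gene of the caudal lateral epiblast, the region that holds neuromesodermal progenitors. SOX1 and SOX3 belong to the SOXB1 group, which holds neural progenitor fate, SOX21 belongs to the related SOXB2 group of repressors, and PAX6 is a paired box factor of the anterior neural plate and eye.

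Levels were estimated counts scaled to the library total (CPM), summed per gene by the authors from Salmon estimates, and are compared between conditions for 1 gene at a time, never between genes. The libraries held 15522780 to 23439799 estimated counts. Of the 8 genes, 6 passed the filter on low counts and entered the edgeR quasi-likelihood test, which was run over 17895 genes with an adjusted p under 0.05 as the threshold. SOX1 and PAX6 did not pass. A gene with at most 3 counts in a library was read as at the detection floor, which lay between 0.128 and 0.193 CPM. RNA was taken from whole cultures, so fewer cells expressing a gene and less RNA per cell cannot be told apart. The labels were checked against summed levels of marker lists. Of the undifferentiated markers, 11 genes summed to 8790 to 8919 CPM in control and to 865 to 4259 CPM after any treatment. The 5 endoderm markers summed to 598 to 1538 CPM in DE(b), above the 62.5 to 385 CPM of all other treated libraries. PPS-DE(b) was lowest of these, at 598 and 826 CPM, against 1112 and 1407 CPM in DE(a)-DE(b) and 1047 and 1431 CPM in MPS-DE(b). The study concludes that endoderm potential was lost after MPS or PPS treatment. It reports low FOXA2 for either population in this medium, and no SOX17 after PPS. The sum therefore checks the medium label, and means over DE(b) describe a medium and not an endoderm fate. The 8 presomitic markers summed to 1238 to 1893 CPM in PM and to at most 484 CPM elsewhere. That maximum was from PPS-DE(b), at 448 and 484 CPM, whereas DE(a)-DE(b) held 13.8 and 18.1 CPM. The 5 lateral mesoderm markers summed to 656 to 2766 CPM in LM, with an overlap with DE(b), where they reached 777 CPM in PPS-DE(b). Replicates 1 came from one deposited table and replicates 2 from the other. A call is described as holding when it also passed in each refit that left out 1 library of the conditions compared, and the libraries on which other calls rested are named.

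ZIC2 and ZIC5 lie side by side on chromosome 13 of GRCh38 and point away from each other. ZIC5 occupies chr13:99962964-99971767 on the minus strand, ZIC2 occupies chr13:99981784-99986765 on the plus strand, and 10016 bases separate their starts in the GENCODE annotation. The 250 bases upstream of both starts are shown because these were the pair whose levels followed each other most closely, followed by those of SP8 (chr7:20782279-20786886, minus strand), the member that rose after day 1. Sequences are from RefSeq on GRCh38.p14, at chr13:99981534-99981783 for ZIC2, chr13:99971768-99972017 for ZIC5 and chr7:20786887-20787136 for SP8, each written 5′ to 3′ along its own gene, with capitals for a match to a searched motif.
ZIC2: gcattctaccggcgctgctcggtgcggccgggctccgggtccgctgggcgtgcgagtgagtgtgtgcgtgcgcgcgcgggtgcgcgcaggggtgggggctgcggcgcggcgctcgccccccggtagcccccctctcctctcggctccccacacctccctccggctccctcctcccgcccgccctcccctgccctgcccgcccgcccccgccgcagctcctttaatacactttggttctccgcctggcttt
ZIC5: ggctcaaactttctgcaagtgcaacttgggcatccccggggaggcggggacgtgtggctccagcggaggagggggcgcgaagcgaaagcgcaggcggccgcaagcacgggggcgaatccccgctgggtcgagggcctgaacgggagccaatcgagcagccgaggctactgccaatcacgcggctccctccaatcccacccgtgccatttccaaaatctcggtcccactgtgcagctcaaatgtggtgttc
SP8: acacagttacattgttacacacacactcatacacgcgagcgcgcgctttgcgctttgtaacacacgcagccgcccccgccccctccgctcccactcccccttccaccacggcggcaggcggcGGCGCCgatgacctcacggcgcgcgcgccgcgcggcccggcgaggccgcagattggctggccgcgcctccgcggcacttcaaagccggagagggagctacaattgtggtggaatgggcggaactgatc
The motifs searched, on both strands, were the TCF/LEF sites CTTTGAT and CTTTGTT, the octamer ATTTGCAT, the FOXH1-type TGTNNATT and the GC-rich SMAD element GGCGCC. None of the 5 was found in the windows of ZIC2, ZIC5, SOX3, SOX21 or NKX1-2, which says only that these letters are not in those windows. SP8 held 1 GGCGCC, drawn in capitals, and so did SOX1, an element present in 16.38% of the 35116 windows of all genes. PAX6, which has several annotated starts, held 1 TGTNNATT in each of 2 windows, against 9.882% of all windows. No matches overlapped. GC content was 75.6% for ZIC2, 64.8% for ZIC5 and 68% for SP8, against a median of 58% over all windows.

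ZIC2 was expressed in control cells at 199.5 and 143 CPM in replicates 1 and 2. At 24 h it stood at 260.5 and 257 CPM in DE(a), 212 and 213 CPM in APS, 81.3 and 80.5 CPM in MPS, and 6.00 and 16.4 CPM in PPS. The order from DE(a) to PPS was the same in both replicates, and the MPS and PPS libraries lay below both control libraries. The fall in PPS was the single call against control at this time (log2 fold change −3.93, SE 0.43, adjusted p = 3.93e-07 by edgeR). For MPS the log2 fold change was −0.98 (95% interval −1.78 to −0.19, adjusted p = 0.0561), and for DE(a) 0.69 (interval −0.09 to 1.48, adjusted p = 0.242). In DE(b) medium ZIC2 was 301 and 316 CPM after DE(a), 280.2 and 285 CPM after APS, 211 and 212 CPM after MPS, and 51.2 and 98.7 CPM after PPS. All DE(b) libraries of the first 3 populations exceeded both controls, while those of PPS lay below. The mean over the 4 DE(b) conditions did not pass against control (log2 fold change 0.21, interval −0.42 to 0.84, adjusted p = 0.617). In PM medium ZIC2 was 85.4 and 88.5 CPM after DE(a), 71.4 and 82.0 CPM after APS, 27.1 and 33.5 CPM after MPS, and 8.08 and 14.8 CPM after PPS. In LM medium it was 26.8 and 17.1 CPM after DE(a), 10.8 and 5.31 CPM after APS, 1.11 and 1.23 CPM after MPS, and 0.526 and 0 CPM after PPS. Every PM and LM library lay below both control libraries. The mean log2 fold change was −2.15 in PM (SE 0.27, adjusted p = 8.82e-07) and −5.93 in LM (SE 0.30, adjusted p = 6.21e-13). When the 17 conditions were ordered by mean ZIC2 level, the replicate ranges of 4 of the 16 neighbouring pairs overlapped.

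ZIC5 differed from its neighbour in that it was highest in control, at 100.5 and 94.9 CPM. At 24 h it was 37.9 and 36.8 CPM in DE(a), 37.9 and 34.2 CPM in APS, 20.0 and 20.2 CPM in MPS, and 1.93 and 3.31 CPM in PPS. All 8 libraries lay below both controls, and each population was called lower. The log2 fold changes were −1.29 for DE(a) (adjusted p = 0.00144), −1.36 for APS (adjusted p = 6.83e-04), −2.19 for MPS (adjusted p = 2.91e-06) and −5.21 for PPS (SE 0.33, adjusted p = 1.26e-10). On day 2, DE(b) cells held 52.5 and 41.5 CPM after DE(a), 51.6 and 53.8 CPM after APS, 44.5 and 39.6 CPM after MPS, and 8.78 and 18.5 CPM after PPS. PM cells held 42.9 and 36.2 CPM after DE(a), 31.4 and 31.9 CPM after APS, 11.7 and 12.7 CPM after MPS, and 2.12 and 2.43 CPM after PPS. LM cells held 15.8 and 8.78 CPM after DE(a), 7.11 and 4.36 CPM after APS, 1.28 and 0.903 CPM after MPS, and 0.105 and 0.219 CPM after PPS, the last resting on 2 and 4 counts. No treated library reached the control level. The mean log2 fold change was −1.46 for DE(b) (adjusted p = 2.25e-06), −2.86 for PM (adjusted p = 6.18e-11) and −5.65 for LM (adjusted p = 6.31e-15).

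**Figure D1:**
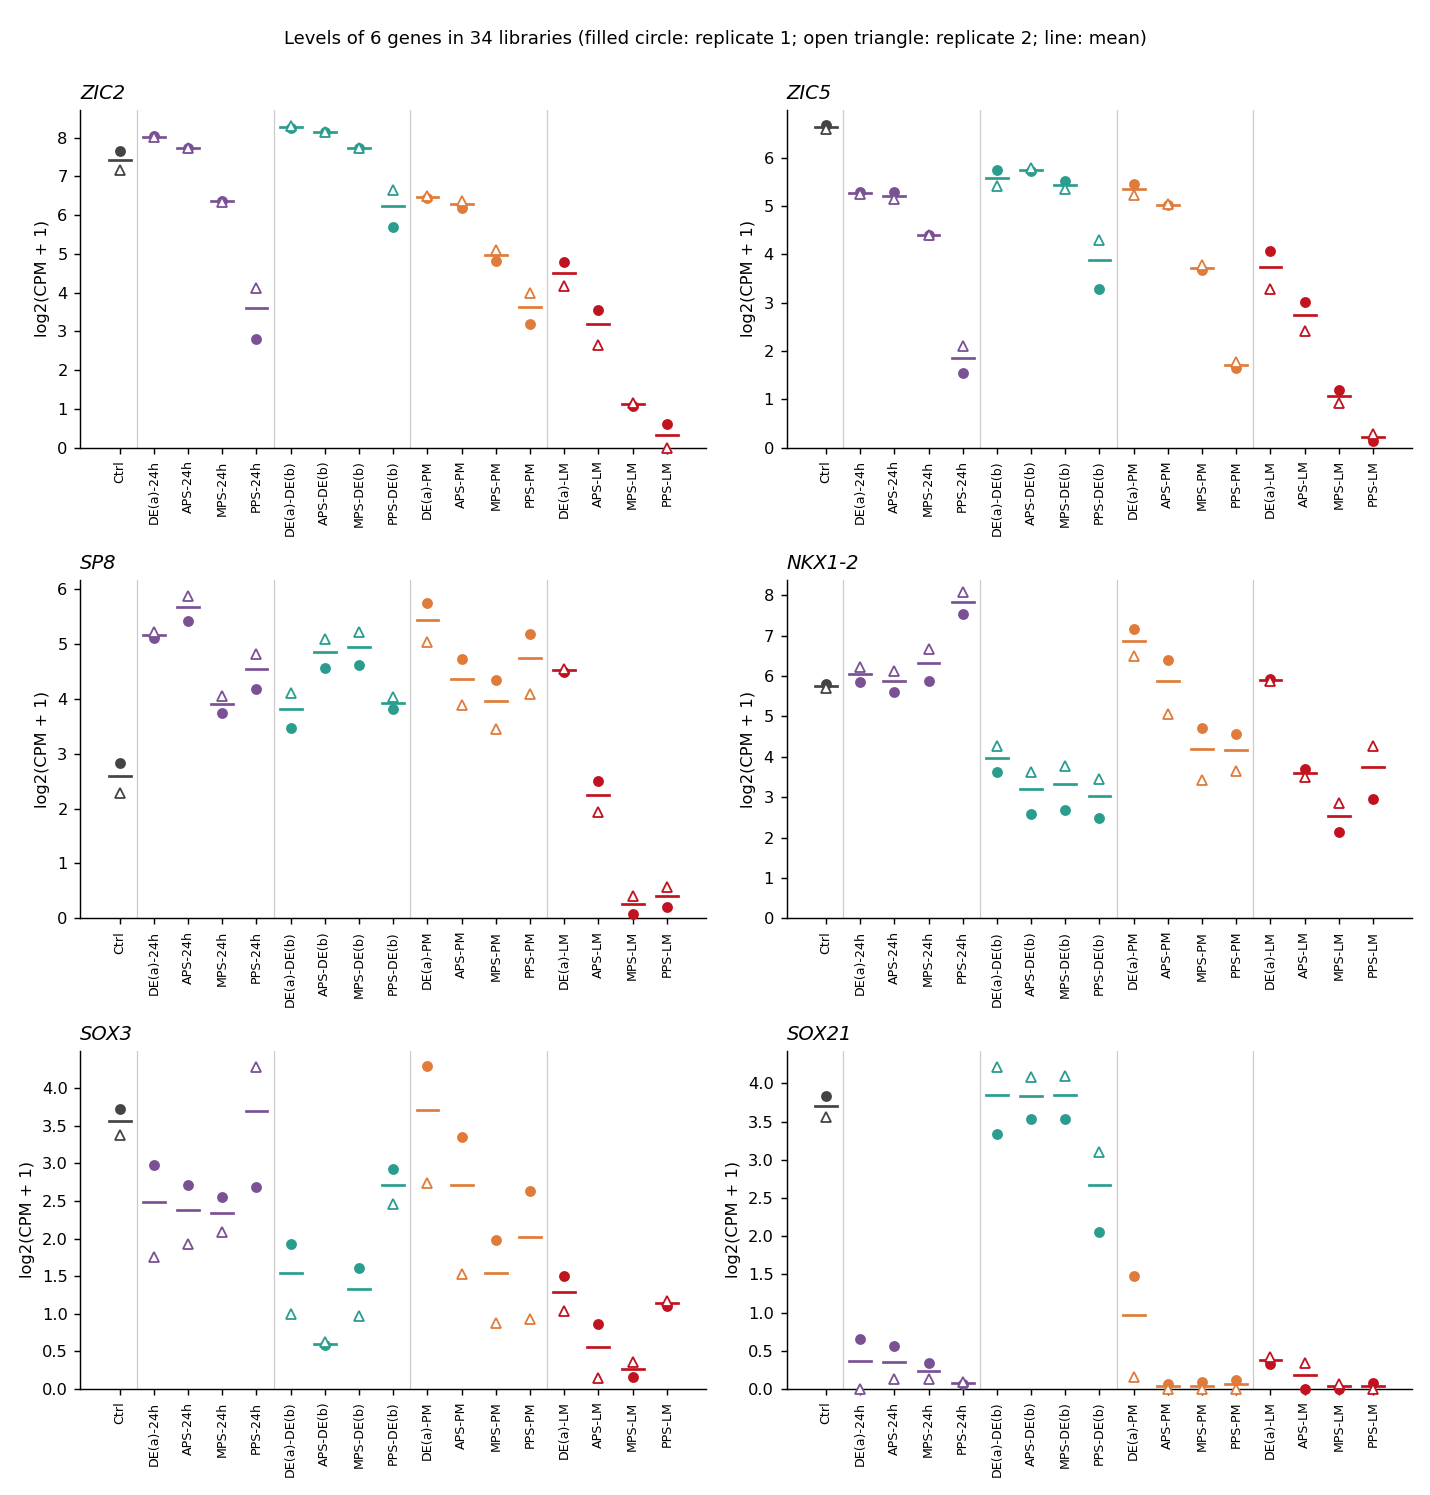
Levels of the 6 tested genes in all 34 libraries, 1 panel per gene, with the 17 conditions along the horizontal axis and log2(CPM + 1) on the vertical axis; filled circles are replicate 1, open triangles replicate 2 and lines the mean of both. The ZIC2 mean steps down from DE(a) to PPS within each block, the ZIC5 mean is lowest after PPS in each, SP8 is lowest in control and in the LM conditions other than DE(a)-LM, and SOX21 is near 0 outside control and DE(b).

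Because both genes were counted in the same library, the ratio of ZIC2 to ZIC5 counts does not depend on library size. It was 1.99 and 1.51 in control. At 24 h it was 6.88 and 6.99 in DE(a), 5.60 and 6.22 in APS, 4.07 and 3.99 in MPS, and 3.11 and 4.94 in PPS. All 8 ratios at 24 h exceeded both control ratios. In DE(b) the 8 ratios ran from 4.75 to 7.62, with a median of 5.40. In PM they ran from 1.99 to 6.12, with a median of 2.51, and the highest were the 3.82 and 6.12 of PPS-PM. In LM the 6 ratios that could be formed ran from 0.865 to 1.95, so that LM and control overlapped while DE(b) and LM did not. The ratio itself was not tested. The isoforms counted for each gene were not given in the sources used here, so a ratio above 1 says nothing of molecules of one against the other, and only its change between conditions can be read.

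**Figure D2:**
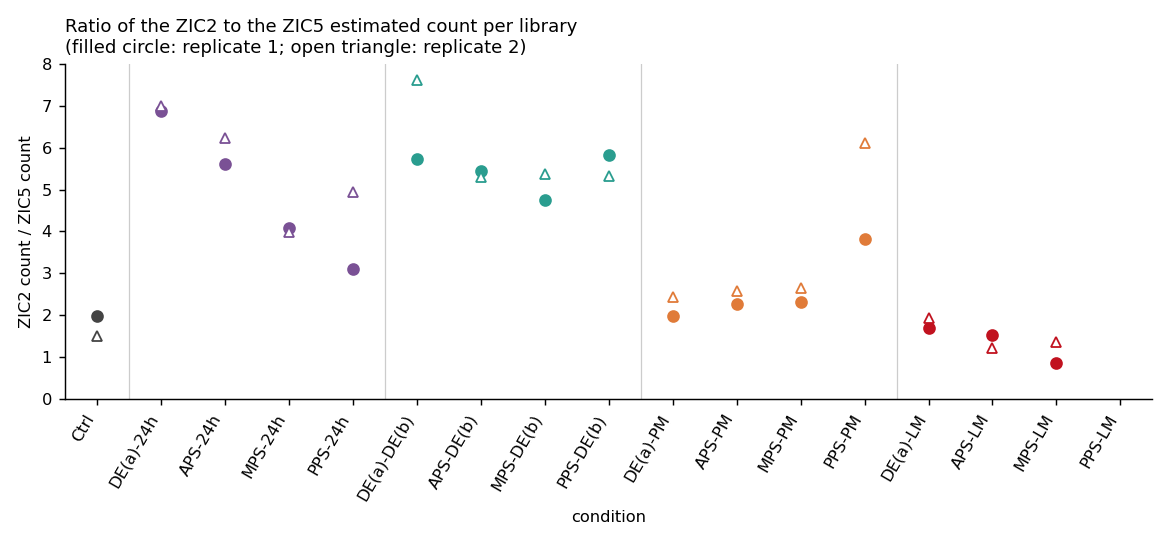
Ratio of ZIC2 to ZIC5 estimated counts in each library on a linear axis, by condition. Filled circles are replicate 1 and open triangles replicate 2. Ratios were formed only where both genes exceeded 3 counts. PPS-LM is not drawn, since replicate 1 had 2 ZIC5 counts and replicate 2 had 0 ZIC2 counts. The ratios in 24 h and DE(b) libraries lie between 3.11 and 7.62, above the control ratios of 1.99 and 1.51, and the LM ratios lie between 0.865 and 1.95.

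SP8 moved the opposite way from ZIC5 on day 1. Control cells had 6.15 and 3.88 CPM. At 24 h SP8 was 33.3 and 36.1 CPM in DE(a), 41.8 and 57.5 CPM in APS, 12.3 and 15.5 CPM in MPS, and 17.2 and 27.3 CPM in PPS. Every library at 24 h was above both controls. SP8 was called higher in each PS population, by a log2 fold change of 2.88 in DE(a) (SE 0.46, adjusted p = 6.67e-05), 3.39 in APS (adjusted p = 8.49e-06), 1.56 in MPS (adjusted p = 0.00981) and 2.17 in PPS (adjusted p = 7.99e-04). The call for MPS was lost without MPS replicate 2 (1.39, adjusted p = 0.0635) and without control replicate 2 (1.27, adjusted p = 0.115), and the other 3 held. After DE(b), the level was 10.02 and 16.1 CPM in DE(a)-DE(b), 22.5 and 33.2 CPM in APS-DE(b), 23.4 and 36.3 CPM in MPS-DE(b), and 12.99 and 15.3 CPM in PPS-DE(b). After PM, it was 52.4 and 31.7 CPM in DE(a)-PM, 25.3 and 13.9 CPM in APS-PM, 19.2 and 9.92 CPM in MPS-PM, and 35.3 and 15.98 CPM in PPS-PM. All DE(b) and PM libraries were above both controls, with a mean log2 fold change of 2.02 in DE(b) (adjusted p = 2.21e-04) and 2.21 in PM (adjusted p = 9.48e-05). LM split the populations. SP8 was 21.4 and 22.4 CPM in DE(a)-LM, 4.65 and 2.84 CPM in APS-LM, 0.0582 and 0.332 CPM in MPS-LM, and 0.158 and 0.492 CPM in PPS-LM. DE(a)-LM was called higher than control (log2 fold change 2.10, adjusted p = 8.39e-04), whereas MPS-LM (−4.47) and PPS-LM (−3.86) were called lower, each resting on 1 to 9 counts per library. The fitted mean over LM fell by 1.66 on the log2 scale (adjusted p = 0.00119), although the mean CPM of the 4 conditions, 6.54, exceeded the 5.02 of control. That call was lost without control replicate 1 (−1.30, adjusted p = 0.0524).

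NKX1-2 (chr10:124445243-124450035, minus strand), the caudal epiblast member, was highest of all conditions in PPS at 24 h. Control cells had 55.1 and 51.2 CPM. At 24 h the level was 57.2 and 73.4 CPM in DE(a), 47.9 and 68.4 CPM in APS, 58.0 and 100.2 CPM in MPS, and 184 and 268 CPM in PPS. Both PPS libraries lay above those of every other condition. NKX1-2 rose in PPS by 2.11 on the log2 scale (SE 0.56, adjusted p = 0.00622 by edgeR), a call that was lost without control replicate 2 (2.06, adjusted p = 0.0547). DE(b) libraries held 11.3 and 18.2 CPM after DE(a), 4.98 and 11.3 CPM after APS, 5.42 and 12.6 CPM after MPS, and 4.56 and 9.89 CPM after PPS. None reached the control level, and the mean fell by 2.46 (adjusted p = 1.94e-05). In PM the level was 141 and 89.2 CPM after DE(a), 83.8 and 32.4 CPM after APS, 25.1 and 9.70 CPM after MPS, and 22.6 and 11.4 CPM after PPS. The PM conditions thus lay on both sides of control, and their mean did not pass (log2 fold change −0.52, interval −1.39 to 0.34, adjusted p = 0.327). In LM it was 59.2 and 58.1 CPM after DE(a), 12.0 and 10.4 CPM after APS, 3.38 and 6.26 CPM after MPS, and 6.69 and 18.3 CPM after PPS. DE(a)-LM stayed just above control while the other 6 LM libraries lay below, and the mean fell by 1.87 (adjusted p = 4.47e-04). In DE(a)-LM, ZIC2, ZIC5, SP8 and NKX1-2 each exceeded every library of the other 3 LM conditions. NKX1-2 overlaps an unnamed noncoding RNA gene on the opposite strand. The strand setting of the quantification was not given, so reads of the pair may have been shared.

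SOX3 (chrX:140502985-140505069, minus strand) was low throughout, and its replicates were far apart. Control libraries had 12.3 and 9.43 CPM. At 24 h SOX3 was 6.90 and 2.36 CPM in DE(a), 5.59 and 2.79 CPM in APS, 4.89 and 3.24 CPM in MPS, and 5.45 and 18.5 CPM in PPS. The PPS pair spanned both controls, and no PS population passed against control; for PPS the log2 fold change was 0.16, with an interval of −1.57 to 1.90. In DE(b) it was 2.81 and 0.993 CPM after DE(a), 0.496 and 0.543 CPM after APS, 2.05 and 0.966 CPM after MPS, and 6.61 and 4.498 CPM after PPS. In PM it was 18.6 and 5.68 CPM after DE(a), 9.19 and 1.88 CPM after APS, 2.96 and 0.836 CPM after MPS, and 5.19 and 0.904 CPM after PPS. In LM it was 1.85 and 1.05 CPM after DE(a), 0.825 and 0.107 CPM after APS, 0.116 and 0.285 CPM after MPS, and 1.16 and 1.26 CPM after PPS. All DE(b) and LM libraries lay below both controls. The mean over a medium had a log2 fold change of −2.63 in DE(b) (adjusted p = 0.00109) and −4.03 in LM (adjusted p = 1.1e-05), both called, and of −1.31 in PM (interval −2.60 to −0.03, adjusted p = 0.089).

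SOX21 (chr13:94709622-94712545, minus strand) was present in control cells, at 13.2 and 10.8 CPM, and nearly absent in the PS populations at 24 h. The 8 libraries at 24 h held 0 to 0.570 CPM, and SOX21 was called lower in every PS population, with log2 fold changes of −5.26 in DE(a) (adjusted p = 0.00119), −5.31 in APS (adjusted p = 7.86e-04) and −5.89 in MPS (adjusted p = 3.42e-04). In PPS both libraries together held 2 counts against 496 in control, a control to PPS ratio of 223 (95% exact counting interval 61.5 to 1848, adjusted p = 1.37e-04). In DE(b) medium SOX21 was 9.15 and 17.6 CPM after DE(a), 10.5 and 15.9 CPM after APS, 10.6 and 16.1 CPM after MPS, and 3.17 and 7.60 CPM after PPS. Every DE(b) library was thus above every 24 h library, and the DE(b) mean was called higher than the 24 h mean (adjusted p = 2.46e-08). Against control the DE(b) mean did not pass (log2 fold change −0.14, interval −1.51 to 1.23, adjusted p = 0.902). PM and LM libraries held at most 1.79 CPM, all below control, and both means were called lower (adjusted p = 6.11e-08 for PM and 4.44e-08 for LM). Of the 34 libraries, 17 were at or under the floor. SOX21 overlaps SOX21-AS1 on the opposite strand, and the strand setting of the quantification was not given in the sources used here, so reads of the pair may have been shared.

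SOX1 (chr13:112067149-112071706, plus strand) and PAX6 (chr11:31784779-31817961, minus strand), the most specific neural markers of the set, were barely detected. SOX1 had 0.226 and 0.585 CPM in control, which was also its highest value, and 0 counts in 25 of 34 libraries. It was at 0 in all 8 DE(b) libraries, where 3 counts would have corresponded to 0.193 CPM at most. PAX6 had 0.262 and 0.372 CPM in control, reached at most 0.644 CPM in MPS-DE(b) replicate 2, and was at 0 in 20 libraries, all 8 LM libraries among them. PAX6 was at or under the floor in 2 of 8 DE(b) libraries and SOX1 in neither control library. In a fit without the filter on low counts, edgeR called SOX1 lower than control in DE(b) (adjusted p = 0.00508), PM (adjusted p = 0.0471) and LM (adjusted p = 0.0127). The same fit called PAX6 lower than control in PM (adjusted p = 0.0208) and LM (adjusted p = 0.00193). It also called PAX6 higher in DE(b) than in PM (adjusted p = 0.0354), LM (adjusted p = 0.00452) and the 24 h mean (adjusted p = 0.0476). No fold is given for these, since most libraries lay at the floor. The calls rest on at most 11 SOX1 and 10 PAX6 counts in any library. They were not refitted without single libraries. For the other members, the fit without the filter gave more calls than the main fit in several comparisons. SOX1 overlaps SOX1-OT on the same strand, and PAX6 overlaps ELP4, PAUPAR and an unnamed protein-coding gene on the opposite strand.

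Set side by side against control, the 6 tested genes were called as follows. At 24 h, 3 of 6 passed in DE(a), where 19.0% of all genes tested passed, 3 in APS (24.5%), 3 in MPS (30.0%) and 5 in PPS (29.8%). At 48 h, 4 of 6 passed in each DE(b) condition, against 34.7%, 38.4%, 38.3% and 34.6% of all genes after DE(a), APS, MPS and PPS. In PM 4, 4, 6 and 5 passed, against 31.4%, 35.0%, 35.8% and 40.9%, and in LM 5, 5, 6 and 6, against 34.9%, 43.4%, 41.6% and 41.1%. Of the 57 calls at 48 h, 39 held when any 1 library of either condition was left out. By gene, 6 of 9 held for ZIC2, 10 of 12 for ZIC5, 8 of 11 for SP8, 3 of 8 for SOX3, 7 of 8 for SOX21 and 5 of 9 for NKX1-2. The calls that did not hold rested on the following libraries, given with the highest adjusted p (edgeR) reached without 1 of them. ZIC2 calls rested on any 1 of the 4 libraries in DE(a)-PM (0.263), on control replicate 1 and both treated libraries in APS-PM (0.143), and on control and treated replicate 1 in PPS-DE(b) (0.276). ZIC5 calls rested on treated replicate 2 in DE(a)-DE(b) (0.0689) and on any 1 of the 4 libraries in APS-DE(b) (0.0835). SP8 calls rested on control replicate 2 in DE(a)-DE(b) (0.18), PPS-DE(b) (0.101) and MPS-PM (0.162), and also on treated replicate 2 in the DE(b) conditions and treated replicate 1 in MPS-PM. SOX3 calls rested on both control libraries and treated replicate 2 in DE(a)-DE(b) (0.244) and MPS-PM (0.239), on control replicate 1 and both treated libraries in MPS-DE(b) (0.152) and DE(a)-LM (0.131), and on either treated library in PPS-LM (0.0763). The SOX21 call rested on treated replicate 2 in DE(a)-PM (0.0738). NKX1-2 calls rested on control and treated replicate 1 in DE(a)-DE(b) (0.117), on both control libraries and treated replicate 2 in MPS-PM (0.251) and PPS-PM (0.192), and on treated replicate 1 in PPS-LM (0.111). Against the mean of each medium, 4 of 6 passed in DE(b) (45.3% of all genes), 4 in PM (45.0%) and 6 in LM (48.9%). In LM all 6 were lower. These comparisons share the 2 control libraries.

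**Figure D3:**
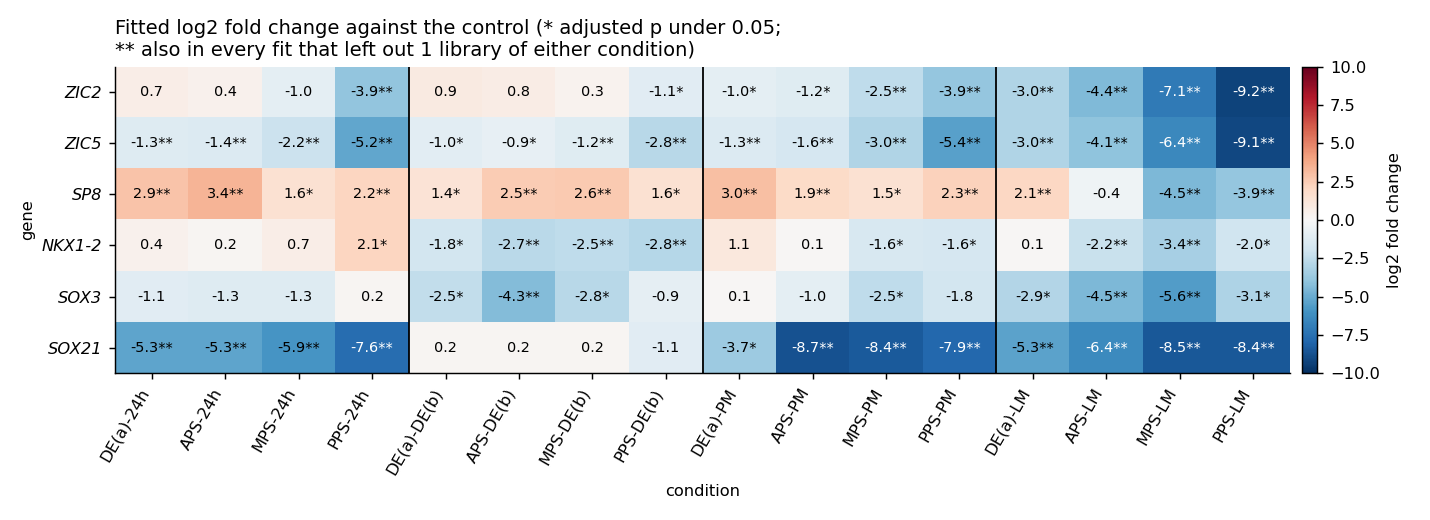
Fitted log2 fold change against control of the 6 tested genes (rows) in the 16 treated conditions (columns); 1 asterisk marks a call at an adjusted p under 0.05 (edgeR) and 2 asterisks a call that also passed in every fit leaving out 1 library of either condition. SP8 is higher in all conditions except APS-LM, MPS-LM and PPS-LM, ZIC5 is lower everywhere, and SOX21 is called lower in every condition outside DE(b), its largest values being from conditions near the detection floor and set in part by the fit.

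The media differed from one another in the members they held. DE(b) against PM gave 5 calls of 6 (43.0% of all genes): ZIC2 was higher in DE(b) by 2.36 on the log2 scale (adjusted p = 1.98e-09), ZIC5 by 1.39 (adjusted p = 3.75e-08), and SOX21 was higher as well (adjusted p = 8.61e-09). NKX1-2 was lower in DE(b) than in PM (−1.94, adjusted p = 9.39e-06), and so was SOX3 (−1.32, adjusted p = 0.023). The SOX3 call was lost without any 1 of 7 libraries, namely the 4 PM replicates 1 and replicate 2 of DE(a)-DE(b), of PPS-DE(b) and of MPS-DE(b), with values of −1.25 to −0.89 and adjusted p of 0.0503 to 0.128. SP8 was not called between these media (−0.19, interval −0.63 to 0.25). LM against PM gave 5 calls of 6 (42.0%), all lower in LM: ZIC2 by −3.77 (adjusted p = 3.57e-11), ZIC5 by −2.80 (adjusted p = 2.21e-11), SP8 by −3.86 (adjusted p = 1.07e-10), SOX3 by −2.71 (adjusted p = 1.04e-04) and NKX1-2 by −1.34 (adjusted p = 5.37e-04). LM against DE(b) also gave 5 of 6 (39.6%), again all lower in LM. ZIC2 differed by −6.13 (adjusted p = 1.95e-14), ZIC5 by −4.19 (adjusted p = 1.95e-14) and SP8 by −3.67 (adjusted p = 2.68e-10), with SOX21 also lower (adjusted p = 8.21e-09). SOX3 differed by −1.40 (adjusted p = 0.0324), a call lost without any 1 of 9 libraries (adjusted p 0.0506 to 0.0947): replicate 1 of DE(a)-DE(b), PPS-DE(b), MPS-DE(b), PPS-LM and MPS-LM, and replicate 2 of APS-DE(b), PPS-LM, APS-LM and DE(a)-LM. NKX1-2 was not called between LM and DE(b) (0.60, interval −0.01 to 1.20).

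Against the mean of the PS populations 24 h earlier, DE(b) gave 5 calls of 6 (51.0% of all genes). ZIC2 rose by 1.17 on the log2 scale (adjusted p = 3.02e-05), ZIC5 by 1.05 (adjusted p = 2.1e-06), and SOX21 rose from near 0. The relative rise of the ZIC2 and ZIC5 means was smallest after DE(a) and largest after PPS. Mean ZIC2 went from 259 to 309 CPM after DE(a) and from 11.2 to 74.9 CPM after PPS. Mean ZIC5 went from 37.3 to 47.0 CPM after DE(a) and from 2.62 to 13.7 CPM after PPS. In the same medium SOX3 fell by 1.74 (adjusted p = 0.00291) and NKX1-2 fell by 3.31 (adjusted p = 6.89e-09). In PM 2 of 6 passed (48.2%), with ZIC2 down by a log2 fold change of −1.19 (adjusted p = 2.82e-05) and NKX1-2 by −1.37 (adjusted p = 2.83e-04). In LM 5 of 6 passed (56.0%), all lower: ZIC2 by −4.97, ZIC5 by −3.14, SP8 by −4.16, SOX3 by −3.13 and NKX1-2 by −2.71. ZIC2, ZIC5 and SOX21 were thus called higher than on day 1 in DE(b) and in neither other medium. The NKX1-2 mean was lower in all 3 media, but not after every day 1 treatment. In DE(a)-PM both libraries (141 and 89.2 CPM) exceeded those of DE(a) at 24 h (57.2 and 73.4 CPM). The APS-PM pair (83.8 and 32.4 CPM) spanned that of APS at 24 h (47.9 and 68.4 CPM). After MPS and PPS, both PM libraries lay below both 24 h libraries. The DE(a)-LM pair (59.2 and 58.1 CPM) lay within the DE(a) range at 24 h.

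The comparison of neighbouring PS populations asked which day 1 factors went with these levels. APS and DE(a) gave 0 calls of 6 by edgeR (0.732% of all genes), and neither an unadjusted p under 0.05 nor DESeq2 picked a member. For ZIC2 the difference was −0.30 (interval −1.08 to 0.48). MPS against APS gave 1 call (2.93%), SP8 lower in MPS by −1.82 (adjusted p = 0.0192). It was lost without MPS replicate 1 (−1.68, adjusted p = 0.222), MPS replicate 2 (−1.98, adjusted p = 0.108) or APS replicate 2 (−1.58, adjusted p = 0.174). PPS against MPS, which differed by activin alone, gave 2 calls (6.14%), and both held. Without activin ZIC2 was lower by −2.94 on the log2 scale (SE 0.42, adjusted p = 1.25e-04) and ZIC5 by −3.02 (SE 0.31, adjusted p = 3.45e-06). NKX1-2 differed by 1.44 (interval 0.31 to 2.58, adjusted p = 0.129), SOX3 by 1.47 (adjusted p = 0.355) and SP8 by 0.60 (interval −0.28 to 1.48, adjusted p = 0.456).

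The day 1 treatment still separated ZIC2 and ZIC5 a day later. Tested over the 4 day 1 treatments at once, 4 of 6 genes differed at 24 h (18.8% of all genes), 2 did in DE(b) (16.6%), 4 did in PM (7.47%) and 4 did in LM (19.6%). ZIC2 and ZIC5 were called in all 4 settings. Their adjusted p was 5.81e-07 and 6.18e-08 at 24 h, 0.00391 and 2.01e-04 in DE(b), 1.95e-04 and 2.05e-07 in PM, and 2.28e-07 and 5.9e-09 in LM. The ZIC2 call in DE(b) was lost without PPS-DE(b) replicate 1 (adjusted p = 0.122). SP8 was called at 24 h (adjusted p = 0.0142) and in LM (adjusted p = 3.38e-08). Its 24 h call was lost without MPS replicate 1 (adjusted p = 0.0792) or APS replicate 2 (adjusted p = 0.0704). NKX1-2 was called in PM (adjusted p = 0.00292), in LM (adjusted p = 4.11e-04) and at 24 h (adjusted p = 0.0273). The last was lost without DE(a) replicate 1 (adjusted p = 0.0576), APS replicate 1 (adjusted p = 0.06), PPS replicate 1 (adjusted p = 0.0548) or PPS replicate 2 (adjusted p = 0.306). The PM call of SOX21 (adjusted p = 0.0286) rested on DE(a)-PM replicate 1, without which the adjusted p was 0.988. It was also lost without replicate 2 of APS-PM (0.0609), MPS-PM (0.0565) or PPS-PM (0.0644). SOX3 was called in none of the 4 settings, with an adjusted p of 0.437 at 24 h.

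Between PPS and DE(a), the ends of the series, 2 of 6 genes differed in DE(b) (17.4% of all genes), 3 in PM (8.61%) and 4 in LM (14.3%). ZIC2 was lower after PPS by −2.001 in DE(b) (adjusted p = 9.18e-04), −2.90 in PM (adjusted p = 9.27e-05) and −6.22 in LM (adjusted p = 4.84e-07). ZIC5 was lower by −1.74 (adjusted p = 1.29e-04), −4.10 (adjusted p = 1.12e-07) and −6.09 (adjusted p = 9.34e-09) in the same order, the LM values resting on 10 and 0 ZIC2 counts and 2 and 4 ZIC5 counts in PPS-LM. SP8 was lower after PPS in LM (−5.96, adjusted p = 5.23e-07). NKX1-2 was lower in PM (−2.74, adjusted p = 0.00375) and in LM (−2.13, adjusted p = 0.0133), the first lost without PPS-PM replicate 2 (−2.34, adjusted p = 0.0824) and the second without PPS-LM replicate 1 (−1.56, adjusted p = 0.196). NKX1-2 was thus highest in PPS cells on day 1 and lower after PPS than after DE(a) in PM and LM on day 2. For cells that differed only in activin on day 1, PPS against MPS, 2 genes passed in DE(b) (5.93%), 1 gene in PM (1.03%) and 1 gene in LM (5.60%). ZIC5 was lower after PPS in all 3 media, by −1.59 in DE(b) (adjusted p = 0.00105), −2.42 in PM (adjusted p = 1.9e-04) and −2.71 in LM (adjusted p = 0.00503). The LM call was lost without MPS-LM replicate 1 (−2.502, adjusted p = 0.0567) or PPS-LM replicate 1 (−2.26, adjusted p = 0.0849). ZIC2 passed in DE(b) alone (−1.46, adjusted p = 0.0255), and that call was lost without MPS-DE(b) replicate 1 (adjusted p = 0.0917), MPS-DE(b) replicate 2 (adjusted p = 0.114) or PPS-DE(b) replicate 1 (−1.06, adjusted p = 0.351).

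Whether the difference left by day 1 depended on the day 2 medium was tested as an interaction, which passed for 3 of 6 genes (13.1% of all genes) and held for each. The adjusted p was 0.0024 for ZIC2, 4.55e-05 for ZIC5 and 4.64e-06 for SP8. It was 0.22 for SOX3, 0.308 for SOX21 and 0.119 for NKX1-2. Comparing the PPS minus DE(a) difference between pairs of media, 1 gene passed for DE(b) against PM (7.71%), 2 for LM against PM (6.52%) and 3 for LM against DE(b) (8.99%).

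Replicates differed in a patterned way for several genes. In PM medium replicate 1 exceeded replicate 2 in 4 of 4 conditions for SP8, SOX3, SOX21 and NKX1-2. For SOX21, 7 of the 8 PM libraries were at or under the floor, so its directions there say little. The mean over the PM conditions was 33.0 CPM in replicate 1 and 17.9 CPM in replicate 2 for SP8, 8.98 and 2.32 CPM for SOX3, and 68.2 and 35.7 CPM for NKX1-2. ZIC2 ran the other way in PM, at 48.0 and 54.7 CPM, with replicate 2 higher in 4 of 4. At 24 h and in DE(b), replicate 2 was the higher one for SP8 in 4 of 4 conditions each. The same count held for NKX1-2, and in DE(b) alone for ZIC2 and SOX21 as well. Each replicate number is a separate deposited table, and whether culture, library or quantification differed between the tables was not tested. The tests of medium means took the 8 libraries of a medium as independent. For genes whose replicates shift together within a medium, the SE and p-values of those means may be too small.

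**Figure D4:**
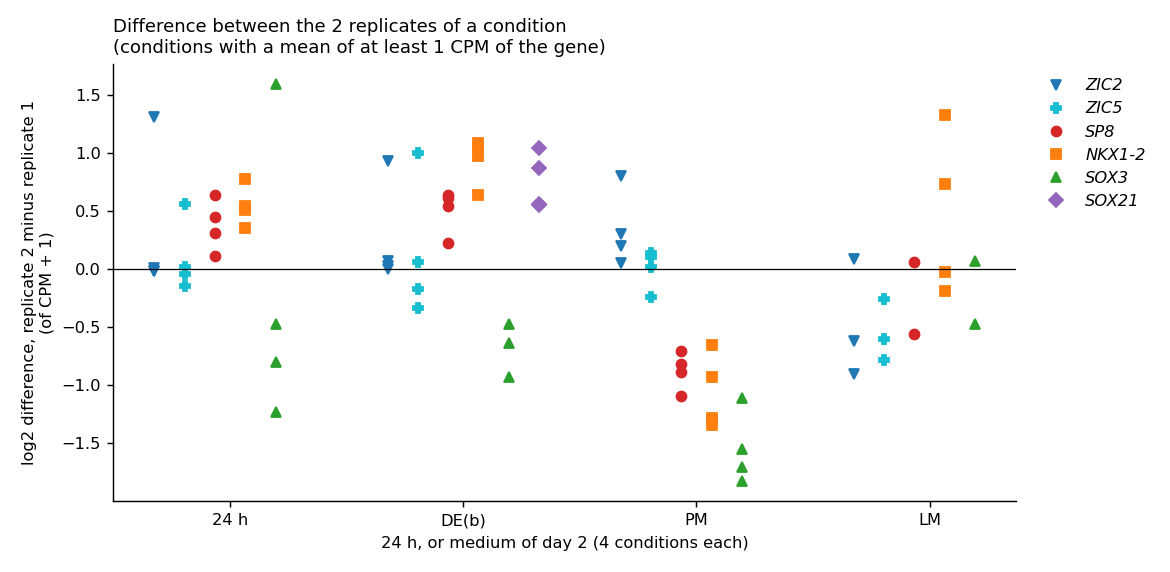
Difference between replicates, as log2(CPM + 1) of replicate 2 minus that of replicate 1, for each tested gene and each condition with a mean of at least 1 CPM, by medium. At 24 h and in DE(b) the ZIC2 points other than those of PPS conditions lie near 0, SOX3 spreads most widely, and in PM all drawn differences of SP8, SOX3 and NKX1-2 are below 0.

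Among the relatives of these genes, 13 of 18 listed paralogs were tested, and 2 were higher and 1 lower than control in DE(a) at 24 h, against 7 and 3 in PPS. The counts of higher and lower paralogs were 4 and 3 for DE(b), 5 and 3 for PM and 5 and 4 for LM. Of all genes tested, 19.0% were called in DE(a) at 24 h and 29.8% in PPS, in either direction. The shares were 45.3% for DE(b), 45.0% for PM and 48.9% for LM. List counts near these shares say nothing particular to a list. SP5 had the largest difference in each, from 0 CPM in control, and SOX2 was lower in each. SOX2, the SOXB1 gene of undifferentiated cells, had 278 to 331 CPM in control, at most 28.3 CPM at 24 h and at most 47.3 CPM in DE(b).

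Of 27 neural plate and progenitor genes, 18 were tested, 1 of the 27 being left out because its reads were split over copies. In DE(a) at 24 h 6 were higher and 2 lower than control (19.0% of all genes called), and in PPS 4 and 5 (29.8%). In DE(b) 5 were higher and 4 lower (45.3%), led by FEZF1 and HESX1 (lower) and IRX3 (higher). In PM the counts were 5 and 7 (45.0%), led by GBX2 (higher), a gene of the posterior neural plate and caudal epiblast, and by RAX and POU3F1 (lower). In LM they were 3 and 8 (48.9%). With genes at the floor set to their bound, the median log2 fold change of this list came to 0 for DE(b), 0.05 for PM and −0.40 for LM. Over all genes tested, medians lay between −0.01 and 0.03 in the comparisons with control. Under 1 CPM in every library were 20 of the 27 in control and 16 in PM. Of the 15 neuromesodermal and caudal epiblast genes, 14 were tested, and 12 were higher in DE(a) at 24 h, 11 in PPS, 11 for DE(b), 12 for PM and 11 for LM, with 1 or 2 lower in each. The members with the largest change in PM were SP5, CDX1 and EVX1. With bounds, its median log2 fold change was 4.65 in DE(a) at 24 h, 7.90 in PPS, 4.72 for DE(b), 8.60 for PM and 4.10 for LM. The list summed to 24.9 to 38.9 CPM in control, 1460 to 3652 CPM in PM and 143 to 1143 CPM in LM.

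The remaining lists set what other cells the cultures could hold. Their counts stand against the same shares of all genes called, 19.0% in DE(a) and 29.8% in PPS at 24 h. For DE(b), PM and LM these were 45.3%, 45.0% and 48.9%. Of 10 tested undifferentiated genes, 9 were lower in PPS at 24 h and in each medium, 6 in DE(a) at 24 h, and 1 was higher in LM. Of 7 tested presomitic genes, MSGN1, HES7 and DLL3 led the 5 that were higher in PM, while in DE(b) 3 were higher and 1 lower, and in LM 4 and 2. Of 10 genes of non-neural ectoderm and amnion, WNT6, TFAP2A and GATA3 led the 6 that were higher in LM, with 2 lower. The same list had 7 higher and 1 lower in PPS at 24 h, 4 and 3 in DE(b) and 4 and 4 in PM. Of 9 neural crest genes, 4 were higher and 3 lower in PM, 4 and 1 in LM, and 3 and 2 in DE(b), with FOXD3 lower in each. All 5 endoderm genes were higher in DE(b), while 2 were higher in PM and 1 was in LM, and of 4 tested lateral mesoderm genes all were higher in LM, 3 in PM and 2 in DE(b). The non-neural ectoderm and amnion list summed to 88.0 to 527 CPM in LM against 19.8 to 23.4 CPM in control. In that medium the fitted means of all 6 tested members were lower than control. By replicate the list summed to 264 and 334 CPM in DE(a)-LM, where SP8 was called higher than control. It summed to 102 and 116 CPM in APS-LM, 88.0 and 134 CPM in MPS-LM, and 373 and 527 CPM in PPS-LM. Whether list and members are related was not tested.

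For each tested gene, the genes with the most similar profile were found by Pearson correlation of log2(CPM + 1) over the 17 condition means, among 13737 genes with at least 5 CPM in some condition. Conditions share day 1 or day 2 media, so these values describe and test nothing. ZIC2 and ZIC5 were each other's most similar gene (r = 0.951), ahead of PALD1 (0.951) and ETS2 (0.945) for ZIC2, and of CSNK2A1 (0.909) and CILP2 (0.907) for ZIC5. By Spearman's rank correlation, ZIC5 was the gene ranked 9 for ZIC2 and ZIC2 was ranked 5 for ZIC5. SP8 was closest to FAM20B (0.889), LONRF1 (0.870) and KLF7 (0.865). NKX1-2 was closest to LIF (0.896), IL21R (0.892) and MPP7 (0.887), and SOX21 to TESC (0.945), SHISA2 (0.943) and CUZD1 (0.939). SOX3 was closest to CDCP1 (0.892), HAS3 (0.881) and SIX4 (0.880), genes that ranked 145 to 258 when replicate 2 alone was used. Ranks of other genes moved as well. With replicate 2 alone, LIF ranked 56 and IL21R 151 for NKX1-2. With replicate 1 alone, KLF7 ranked 299 for SP8. By Spearman's correlation TESC ranked 270 for SOX21 and FAM20B 179 for SP8. ZIC5 ranked 2 for ZIC2 with replicate 1 alone and 3 with replicate 2 alone.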

How the data were processed

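RNA was measured in 34 libraries of ESI017 cells, 17 conditions with 2 biological replicates each, made with poly(A) selection and a directional kit and read as 2 × 75 bases. The authors quantified reads with Salmon 1.10.2 on a GRCh38 index with sequence and GC bias correction and deposited estimated counts summed per gene in R 4.4.2, 1 table per replicate number. The annotation and strand setting are not given in the sources used here. Estimated counts were rounded, scaled by TMM and tested with edgeR 4.0.16 (quasi-likelihood, R 4.3.3), with 1 mean per condition, all 34 libraries and 17 residual degrees of freedom. Adjustment was by Benjamini-Hochberg over the 17895 of 37951 genes that passed filterByExpr, with a threshold of 0.05. Intervals are at 95%. CPM were counts over the library total. Depth ran from 15522780 to 23439799 estimated counts per library (median 19341117). Intervals of count ratios cover counting error only. Alternatives were RLE scaling, no filter, a replicate term, fits of only the libraries compared, DESeq2 1.42.0 and each library left out, the last keeping the tested genes and the dispersion trend. The test was checked on simulated data. All 8 members were named. Of each marker and paralog list, the counts and up to 3 called genes of largest change, and for each member the 3 genes of most similar profile, could be named. Genes split over several Ensembl copies (POU5F1, WNT3, DLL1, GATA4 and HES5) were left out of list counts. The members and lists were chosen with earlier results of these data known. Positions are from GENCODE v44 and sequences from RefSeq, both on GRCh38, with the build patch of the study's index not checked.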

Additional observations from a re-analysis of the deposited data

Results flagged for a closer look

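The difference that day 1 left on ZIC2, ZIC5 and SP8, taken as PPS minus DE(a) on the log2 scale, depended on the day 2 medium by the tests of that difference itself (edgeR, adjusted over all genes). For ZIC2 it was more negative in LM than in DE(b) by −4.22 (adjusted p = 0.00106) and more negative in LM than in PM by −3.32 (adjusted p = 0.0143). The second ZIC2 value passed no longer without DE(a)-LM replicate 1 (−3.01, adjusted p = 0.0542), PPS-PM replicate 2 (−2.79, adjusted p = 0.0674) or PPS-LM replicate 2 (−2.37, adjusted p = 0.126). For ZIC5 it was less negative in DE(b) than in PM by 2.36 (adjusted p = 8.31e-04) and more negative in LM than in DE(b) by −4.35 (adjusted p = 2.23e-05). For SP8 it was more negative in LM than in PM by −5.27 (adjusted p = 1.02e-04) and in LM than in DE(b) by −6.12 (adjusted p = 1.12e-05). The LM values rest on few counts in PPS-LM, where ZIC2 had 10 and 0 counts, ZIC5 2 and 4, and SP8 3 and 9. Groups of 2 libraries are too small for a check of single libraries that stand apart.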

How the results depend on the processing

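Of 151 called values of single members, none reversed and none was lost with RLE scaling, no filter, DESeq2 or the replicate block, 4 of 150 were lost when only the libraries compared were fitted, and 33 were lost without at least 1 library. The 4 were the PM calls of NKX1-2 among day 1 treatments (adjusted p = 0.115) and of ZIC5 for PPS against MPS (0.0632), the LM call of ZIC5 for PPS against MPS (0.102) and the ZIC2 difference between LM and PM (0.112). Without the filter on low counts calls went from 3 to 7 for neighbouring PS populations, 14 to 22 among day 1 treatments, 9 to 14 for PPS against DE(a), 4 to 11 for PPS against MPS, 3 to 6 for the interaction and 6 to 12 for its differences between media, none of the added calls being of SOX1 or PAX6; the cause was not tested. Leaving out 1 library gave 12 to 14 calls at 24 h (14 with all), 46 to 58 at 48 h (57), 13 to 15 for media against control (14), 2 to 3 for neighbours (3), 14 to 15 between media (15), 12 to 14 against 24 h (12), 13 to 14 among day 1 treatments (14), 8 to 10 for PPS against DE(a) (9), 3 to 4 for PPS against MPS (4), 3 for the interaction and 5 to 7 for its differences (6). Over 136 pairs of conditions, the correlation of replicate differences ran from −0.196 to 0.569 (median 0.162), with 96 over 0.1 and 3 under −0.1. Replicates of a number thus tended to deviate together, but not in every pair, and no label says what they share, so the numbers were not taken to pair the samples. The replicate block gave 15 calls at 24 h and 58 at 48 h. Its single replicate term cannot absorb replicate shifts that change direction between media. Family counts for single 48 h conditions and for the interaction differences were added after seeing the data. SOX21, SOX1 and PAX6 are limited by depth, since 17, 30 and 24 of their 34 libraries were at or under 3 counts.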
